A study of Mus musculus with 10 samples.

Results

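The genes described here are 8 transcription factors of the naive pluripotent state: Klf2, Klf4, Klf5, Esrrb, Tfcp2l1, Prdm14, Nr5a2 and Sall4. They were chosen by name and not by a rule on values, though earlier results of these data were known. All 8 were found among the 21755 protein-coding genes that GENCODE M21 places on chromosomes 1 to 19 and X of mm10. At each gene the H3K4me3 peaks and the open chromatin sites were described at the annotated starts, in the gene body and up to 100 kb to either side. The cells were F123, a mouse embryonic stem cell line from an F1 cross of Mus musculus castaneus with S129/SvJae. They were grown with serum replacement and 1000 U/ml of LIF on irradiated CF1 mouse embryonic fibroblasts, with a last passage on gelatin without feeders. No cells carried another genotype or treatment, so the design holds no contrast between conditions. H3K4me3 ChIP-seq (2000000 cells per sample) and ATAC-seq (100000 cells per sample) had 2 biological replicates each, and the authors deposited 1 list of replicated peaks per assay.

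In mouse embryonic stem cells LIF acts through Stat3 to maintain a network of transcription factors that opposes differentiation. Pou5f1, Sox2 and Nanog are its core. The factors described here surround that core and are known for holding the cells in the naive state, which resembles the epiblast before implantation. Klf2, Klf4 and Klf5 are zinc finger proteins of the Krüppel-like family that bind GC-rich elements and can stand in for each other. Esrrb and Nr5a2 are orphan nuclear receptors that bind as monomers to closely related sites. Tfcp2l1 is a grainyhead-like factor downstream of LIF, Prdm14 represses differentiation genes and DNA methylation, and Sall4 is a zinc finger partner of Pou5f1. H3K4me3 marks the nucleosomes around active or poised promoters, and ATAC-seq finds DNA that a transposase can enter.

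The H3K4me3 list held 33487 peaks and the ATAC-seq list 179109 sites. Since each list stands for both replicates, no value below has a spread between replicates, and none was tested. The lists carry no read counts, so depth is unknown and a missing peak means only that none was listed. RNA was not measured in these data. As a check of the label, all 8 stem cell marker genes examined (Pou5f1, Sox2, Nanog, Zfp42, Dppa5a, Tdgf1, Utf1 and Fgf4) had an H3K4me3 peak at a start, 7 of them in the widest 10% of coding genes. Of 12 fibroblast genes, listed because the feeder cells are fibroblasts, 8 had a peak and 1 (Prrx1, 3826 bp) was among the widest 10%. Over all coding genes 69.3% had a peak, and 9.99% of these were in the widest 10%, so the fibroblast genes were near those shares. Col3a1, Lum, Postn and S100a4 had none, and the peak at Dcn was 271 bp wide. The remaining fibroblast peaks measured 1233 bp (Pdgfrb) to 3322 bp (Twist1). The share of feeder chromatin in the libraries was not tested.

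Every naive factor carried H3K4me3 at a start. The promoter peak of a gene was taken as the widest H3K4me3 peak within 1 kb of any of its annotated starts, and 8 of 8 naive factors had such a peak, beside 69.3% of all coding genes. Their promoter peaks had a median width of 4282.5 bp, against 2181 bp over the 15068 coding genes with a peak. Of the 8, 5 (Klf2, Klf4, Klf5, Prdm14 and Sall4) lay in the widest 10%, which begins at 3805 bp and holds 9.99% of these genes. Their enrichment was near that of other genes. The median fold enrichment over background, as the authors' peak caller gave it, was 28.8 for the naive factors and 30.5 for all coding genes.

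Among Klf2, Klf4 and Klf5, Klf4 had the widest peak. It ran over 5242 bp (mm10 chr4:55529371-55534612), was wider than 97.5% of the promoter peaks and ranked 374 of 15068, with a fold enrichment of 26.5. Klf2 had 4558 bp (chr8:72318457-72323014; rank 687) at a fold of 38.2, and its peak covered the whole of the 2624 bp gene and ended beyond it. Such a peak over the entire gene was found at 1.97% of coding genes with a promoter peak, and at no other naive factor. Klf5 had 4007 bp (chr14:99297765-99301771; rank 1218) and the highest fold of the 8, 41.4. These 3 genes thus had wide peaks of middle to high enrichment, at the 39.6th, 70.6th and 77.9th percentile of fold.

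The widest promoter peaks of the nuclear receptors were long and low. The widest promoter peak of Esrrb (chr12:86469302-86472621) measured 3320 bp with a fold of 18.0, and that of Nr5a2 (chr1:136946883-136950442) measured 3560 bp with a fold of 17.2. Both were wider than most promoter peaks, at the 83.8th and 87.3rd percentile of width, and lower than most, at the 21.1st and 19.9th percentile of fold. For Esrrb this depends on which of its peaks is taken. The peak with the highest fold, at the start shared by 3 of its 6 transcripts, measured 2203 bp (52.0th percentile of width under that choice) at a fold of 27.1, near the median fold of the 8. Both genes also had further H3K4me3 peaks next to the widest. When peaks with gaps of up to 1 kb were joined, the domain of Esrrb grew to 10212 bp and that of Nr5a2 to 9056 bp, both then past the edge of the widest 10% (4404 bp under joining), while Klf5 at 4007 bp fell outside it.

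Sall4, Prdm14 and Tfcp2l1 spanned the range of shapes. The Sall4 peak (chr2:168760969-168767969) was the widest of the 8 at 7001 bp, rank 74 of 15068, with a fold of 37.6. Prdm14 came next in width with 5338 bp (chr1:13123627-13128964; rank 342), yet its fold of 10.0 was the lowest of the 8 and exceeded only 9.35% of promoter peaks. A Prdm14 peak of this kind was broad and shallow, whereas the peak of Tfcp2l1 was ordinary in both measures: 2177 bp (chr1:118627540-118629716; rank 7553) and a fold of 31.0, at the 49.8th and 51.3rd percentile.

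**Figure D1:**
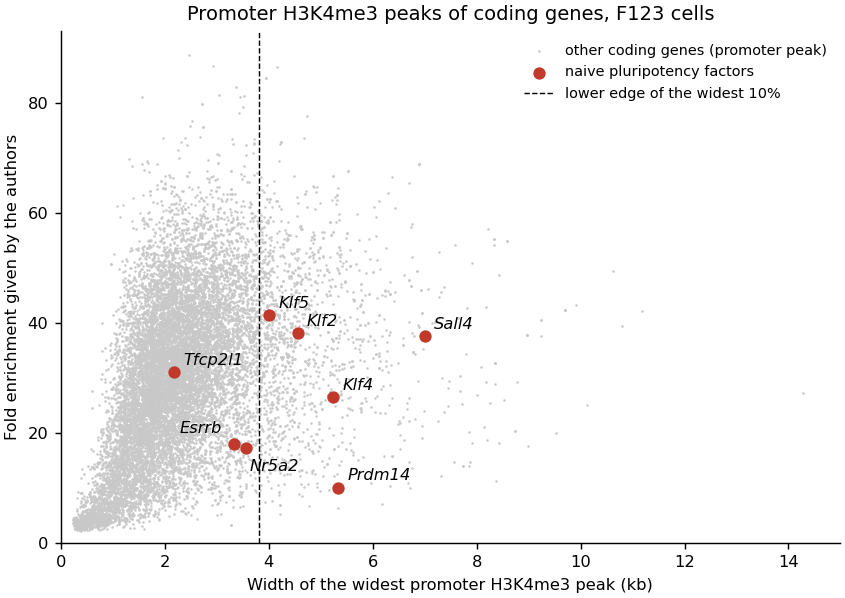
Width of the widest promoter H3K4me3 peak (x axis, kb) against the fold enrichment given by the authors (y axis), 1 point per coding gene with a promoter peak, the 8 naive factors in red and the lower edge of the widest 10% (3805 bp) dashed. Sall4, Prdm14, Klf4, Klf2 and Klf5 lie to the right of the edge, Prdm14 low at a fold of 10.0, and Tfcp2l1 sits in the middle of the cloud.

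The peaks reached further downstream of a start than upstream of it. At Esrrb and Nr5a2 the widest peak lies at an internal start, so its upstream part is inside the gene as well. Measured from the most 5′ start inside the peak, they extended 26 bp (Sall4) to 2146 bp (Klf4) upstream and 1771 bp (Tfcp2l1) to 6974 bp (Sall4) downstream. The medians were 847.5 bp upstream and 3087.5 bp downstream, against 688 and 1412 bp over all coding genes. The downstream median of the widest 10% of promoter peaks was 3099.5 bp, so the naive factors resembled other wide peaks in this respect. The Sall4 peak covered 35.6% of its gene, the Klf4 peak 58.2% and the Prdm14 peak 25.8%. Inside the promoter peaks of the naive factors, ATAC-seq sites took 14.2% (Klf2) to 38.8% (Esrrb) of the peak. This share was not computed for other genes. Sall4 had 5 such sites, Prdm14 4, Klf4 and Nr5a2 3 each, Klf5 and Esrrb 2 each, and Klf2 and Tfcp2l1 1 each. The median was 1 over all promoter peaks and 2 over the widest 10%.

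The annotation gives the 8 genes 18 start clusters, where starts within 500 bp of the next were joined. H3K4me3 lay within 1 kb of 14 of the 18 (41.2% of all start clusters of coding genes) and an ATAC-seq site within 1 kb of 17 (50.2%). A single cluster, marked and open, was found at Klf2 (ENSMUSG00000055148.7, chr8:72319033-72321656, plus strand), Klf5 (ENSMUSG00000005148.8, chr14:99298691-99315036, plus strand), Tfcp2l1 (ENSMUSG00000026380.10, chr1:118627945-118685168, plus strand) and Prdm14 (ENSMUSG00000042414.7, chr1:13113457-13127163, minus strand). The other 4 genes had several, and at Esrrb and Nr5a2 the most 5′ cluster was not marked. Among the 10321 coding genes with several clusters of which at least 1 was marked, the same held for 7.45%.

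Esrrb (ENSMUSG00000021255.17, chr12:86361117-86521628, plus strand) showed the largest distance between its annotated 5′ end and H3K4me3. Its first start, at 86361117, had no H3K4me3 peak within 41313 bp, although a 228 bp ATAC-seq site covered it. The second start, 60527 bp downstream, is shared by 3 of the 6 transcripts and lay in a peak of 2203 bp with a fold of 27.1, the tallest at this gene. The third, 109000 bp from the 5′ end, lay in the 3320 bp peak. The fourth, of a noncoding transcript, was covered by a 510 bp open site and had a weak peak (989 bp, fold 4.09) that ended 425 bp away. The marked starts of Esrrb were thus its internal ones.

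Nr5a2 (ENSMUSG00000026398.14, chr1:136842571-136960448, minus strand) had the same arrangement over a shorter distance. No H3K4me3 peak and no open site lay within 1 kb of the first cluster, where 2 of 6 transcripts begin, and it was the only one of the 18 with neither. The nearest H3K4me3 peak was 1429 bp away, so with a window of 2.5 kb, chosen after seeing the data, this cluster counted as marked and the total rose to 15 of 18. The second cluster, 6818 bp downstream, lay in a peak of 3354 bp (fold 13.2), and the third, 10886 bp downstream, in the 3560 bp peak (fold 17.2). The last, noncoding start, 19865 bp downstream, was covered by a 531 bp open site without H3K4me3 within 4875 bp.

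At Sall4 (ENSMUSG00000027547.17, chr2:168748332-168767943, minus strand) the 7001 bp peak spanned 3 start clusters over 2697 bp, together 5 distinct starts, so the peak does not tell them apart. A noncoding neighbour, Gm14261, also begins inside it. The cluster with most transcripts (4 of 7) was covered by the widest open site of the peak, 721 bp. The most 5′ start, of a noncoding transcript, lay 26 bp from the edge of the peak and was not itself covered by an open site. The fourth cluster, 12000 bp from the 5′ end, was unmarked. At Klf4 (ENSMUSG00000003032.8, chr4:55527143-55532466, minus strand) both clusters, 696 bp apart, lay in the same peak, and only the first was covered by an open site, of 1120 bp.

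**Figure D2:**
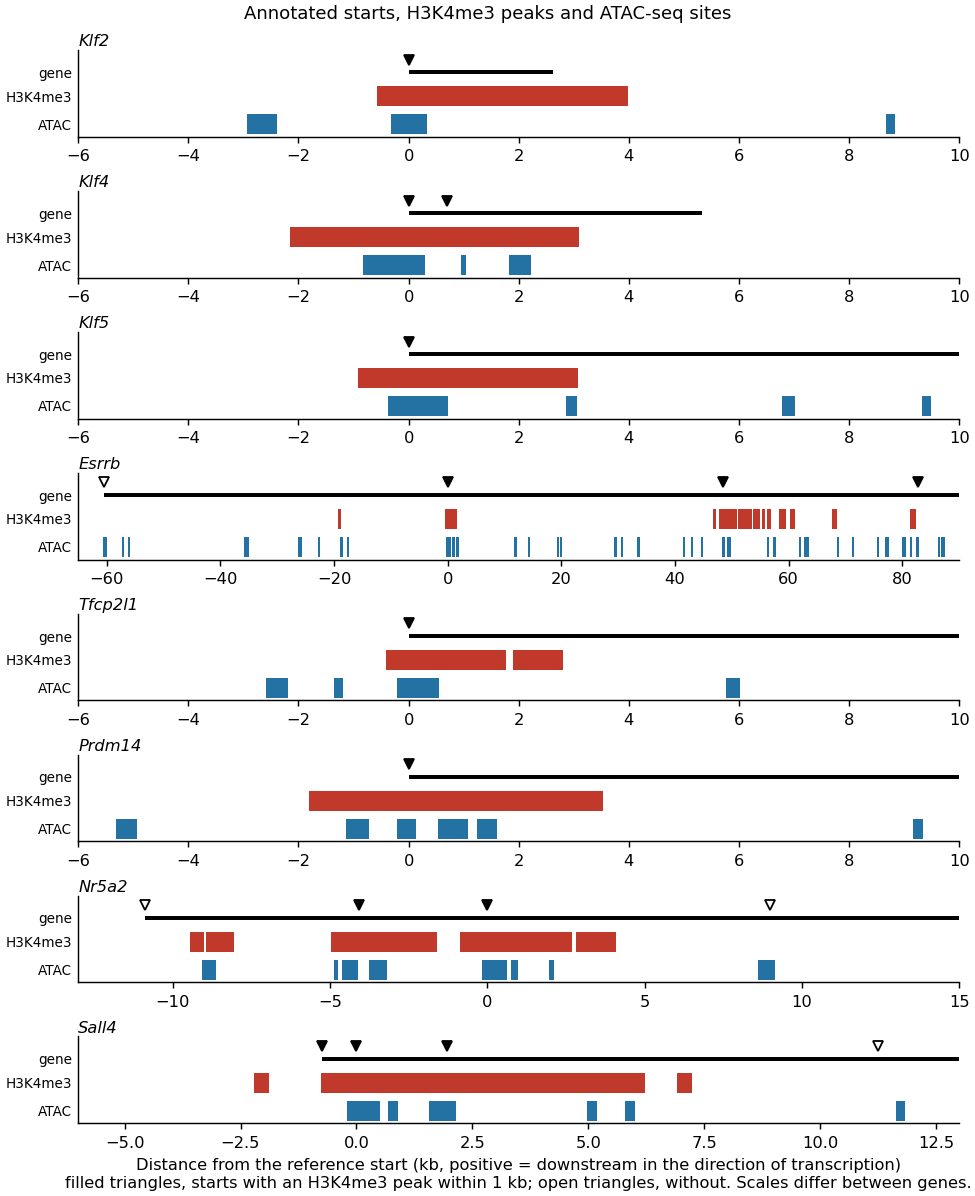
Annotated gene (black), H3K4me3 peaks (red), ATAC-seq sites (blue) and start clusters (triangles, filled where an H3K4me3 peak lies within 1 kb) of the 8 naive factors, by distance in kb along the direction of transcription from the reference start, the marked cluster with most transcripts. The scale differs between genes: the Esrrb panel spans its 4 starts, with the first one open but unmarked, and the Nr5a2 panel shows the unmarked first cluster 10886 bp before the reference start.

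An unmarked and a marked promoter each of Esrrb and Nr5a2 are shown here so that their sequence can be compared. They run from 250 bases before to 50 after the RefSeq start (RefSeq, GRCm38.p6, the reference strain and not the alleles of F123), read along the direction of transcription, with each CG pair in capitals. The RefSeq promoter table had entries for 5 of the 8 genes. The Klf4 promoter is added as an example of a CpG-rich start.
Nr5a2, unmarked first start, chr1:136960399-136960698, minus strand: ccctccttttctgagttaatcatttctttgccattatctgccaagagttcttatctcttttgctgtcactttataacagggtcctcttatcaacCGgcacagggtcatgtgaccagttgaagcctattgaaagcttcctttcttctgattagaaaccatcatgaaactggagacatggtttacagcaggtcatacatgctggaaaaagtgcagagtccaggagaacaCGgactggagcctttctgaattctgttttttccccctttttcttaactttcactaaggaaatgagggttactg
Nr5a2, marked start, chr1:136953581-136953880, minus strand: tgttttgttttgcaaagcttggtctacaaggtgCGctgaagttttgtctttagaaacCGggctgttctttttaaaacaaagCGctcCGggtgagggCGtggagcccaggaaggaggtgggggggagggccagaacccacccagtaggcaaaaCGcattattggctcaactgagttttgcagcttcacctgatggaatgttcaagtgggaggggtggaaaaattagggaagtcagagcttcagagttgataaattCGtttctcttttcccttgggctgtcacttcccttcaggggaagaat
Esrrb, unmarked first start, chr12:86360867-86361166, plus strand: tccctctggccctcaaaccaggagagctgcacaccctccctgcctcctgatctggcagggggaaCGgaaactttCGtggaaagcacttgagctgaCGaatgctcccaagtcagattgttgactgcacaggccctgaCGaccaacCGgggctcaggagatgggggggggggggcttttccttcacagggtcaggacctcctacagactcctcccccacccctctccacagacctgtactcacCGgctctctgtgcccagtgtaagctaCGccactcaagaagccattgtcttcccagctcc
Esrrb, marked start, chr12:86421394-86421693, plus strand: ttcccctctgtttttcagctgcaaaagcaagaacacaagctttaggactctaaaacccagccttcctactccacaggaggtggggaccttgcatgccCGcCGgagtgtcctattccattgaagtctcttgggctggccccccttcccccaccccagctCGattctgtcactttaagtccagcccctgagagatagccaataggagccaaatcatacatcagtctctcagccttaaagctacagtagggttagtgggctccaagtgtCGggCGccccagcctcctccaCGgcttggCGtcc
Klf4, marked start, chr4:55532426-55532725, minus strand: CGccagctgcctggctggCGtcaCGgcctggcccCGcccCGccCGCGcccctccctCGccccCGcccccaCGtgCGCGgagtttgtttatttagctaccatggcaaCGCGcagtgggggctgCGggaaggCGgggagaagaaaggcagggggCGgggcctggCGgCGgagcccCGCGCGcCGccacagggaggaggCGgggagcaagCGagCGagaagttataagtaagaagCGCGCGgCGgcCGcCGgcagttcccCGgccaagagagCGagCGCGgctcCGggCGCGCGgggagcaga

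The unmarked Nr5a2 promoter holds 2 CG pairs and the marked one shown, of the second cluster, 7. The third Nr5a2 cluster, which is marked too and has the higher fold, is not shown. Both Esrrb promoters hold 7, which is also the median of the 32851 promoters in the table, and Klf4 holds 40, more than 96.1% of them. In the 500 bp centred on the start the Esrrb pair differed: the ratio of observed to expected CpG was 0.312 at the unmarked and 0.800 at the marked start. The 200 bases that follow the printed window hold 5 CG pairs at the unmarked and 30 at the marked Esrrb start. The first Nr5a2 cluster had a GC content of 40.4% and a CpG ratio of 0.148, above that of only 18.8% of the start clusters of coding genes.

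A start was called CpG-island-like when these 500 bp had a GC content of at least 55% and a CpG ratio of at least 0.65. Of the 14 marked starts of the naive factors 6 passed, beside 51.3% of all marked starts of coding genes, and of the 4 unmarked starts 0 passed, beside 0.267%. The 6 belonged to Klf2, Klf4, Klf5, Tfcp2l1 and Esrrb (2 starts). Klf4 had the highest CpG ratio, 0.940 at a GC content of 77.4%. The broad Prdm14 peak lay on a start with a GC content of 52.4% and a CpG ratio of 0.469, and the 3 starts in the Sall4 peak had ratios of 0.313, 0.657 and 0.629. The second of these missed only the limit on GC, at 54.2%. Calls near the limits turned with the window: Sall4 had a passing start with 200 or 1000 bp windows (the former with lower limits), and Tfcp2l1 had none with 1000 bp. Neither marked Nr5a2 start passed, with ratios of 0.472 and 0.360. Wide H3K4me3 was therefore found at these genes on starts with and without CpG-island-like sequence.

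**Figure D3:**
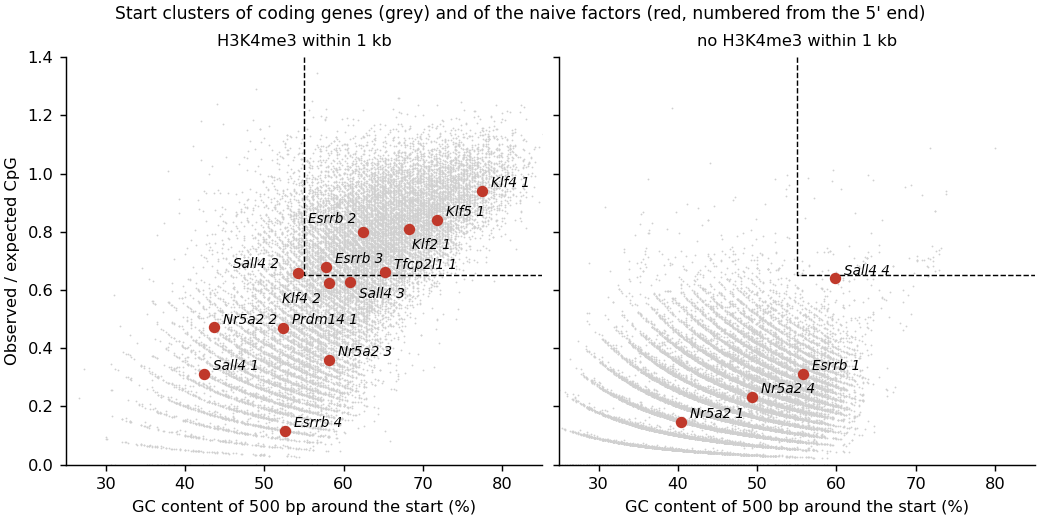
GC content of the 500 bp around each start cluster (x axis, %) against the ratio of observed to expected CpG (y axis), for starts with H3K4me3 within 1 kb (left) and without (right). Grey points are all coding genes, red points the 18 clusters of the naive factors, numbered from the 5′ end, and the dashed lines the limits for CpG-island-like starts. Klf4 lies at the top of the left panel, and the 4 unmarked starts in the right panel all lie outside the limits.

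Open sites away from any coding start were many at most, but not all, of these genes. A distal site was an ATAC-seq site with no start of a coding gene within 1 kb, and sites were counted from 100 kb before to 100 kb after the gene. Esrrb had 53 distal sites, Sall4 45, Klf5 43, Prdm14 41, Nr5a2 35, Tfcp2l1 29, Klf2 24 and Klf4 13. The median was 38, against 19 over all coding genes. The first 5 of these genes were in the top 10% of coding genes, which begins at 35 sites and, with ties, holds 9.35% of them. Nr5a2 stood exactly at that edge, and Klf4 had more sites than only 26.9% of coding genes.

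The windows differ in length, since those of Esrrb and Nr5a2 measured 361 and 318 kb and that of Klf2 203 kb. Within 100 kb of the annotated 5′ end alone, Sall4 had 43 sites, Klf5 41 and Prdm14 38, at the 99.3rd, 98.9th and 98.0th percentile. Klf2 then had 24, Esrrb 23, Nr5a2 20, Tfcp2l1 18 and Klf4 13, where the median over coding genes was 16. In these equal windows 3 of 8, not 5, were in the top 10%, without Esrrb and Nr5a2. The value of Esrrb depended on the centre of the window, because its annotated 5′ end is an unmarked start 60527 bp before its marked start with most transcripts. Within 100 kb of that marked start, a setting chosen after seeing the data, Esrrb had 39 sites, at the 98.4th percentile, and Nr5a2 19, so that 4 of 8 (Sall4, Klf5, Esrrb and Prdm14) were in the top 10%. Per 100 kb of the full window Esrrb (14.7 sites) was also in it and Nr5a2 (11.0) was not.

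**Figure D4:**
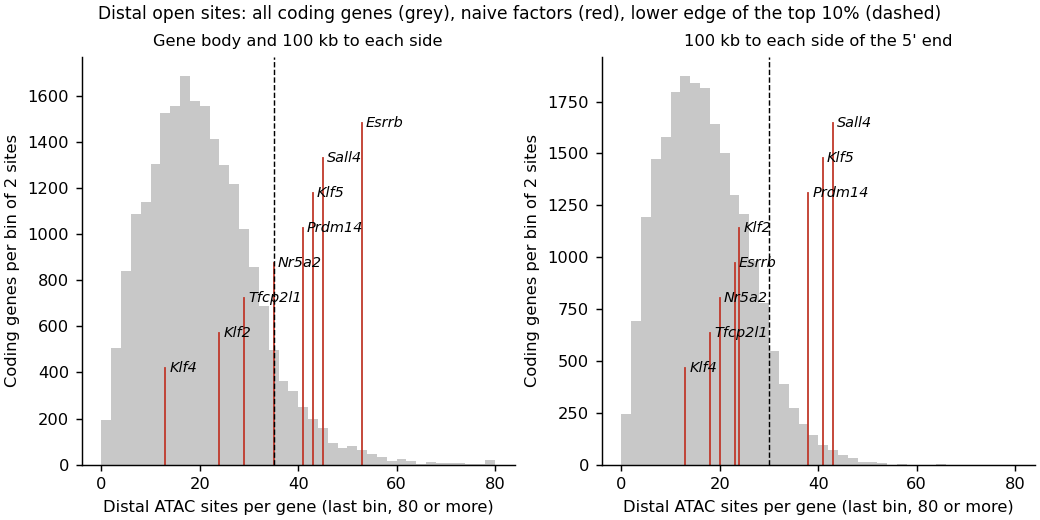
Number of distal ATAC-seq sites per coding gene (x axis; the last bin holds 80 or more) against the number of genes per bin of 2 sites (y axis), with windows that include the gene body (left) or reach 100 kb to each side of the annotated 5′ end (right). Red lines give the naive factors, at heights chosen only for their labels, and the dashed line the lower edge of the top 10%, 35 sites on the left and 30 on the right. Sall4, Klf5 and Prdm14 lie beyond it in both panels.

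The sites also lay differently around each gene. Of the 283 distinct distal sites, 158 were intergenic, 54 in introns and 8 in exons of the gene itself, and 63 in another annotated gene. Esrrb had 36 of its 53 within its own body, 34 of them in introns. Sall4 had 22 upstream and 20 downstream, Klf2 15 upstream and 9 downstream, and Prdm14 12 and 26. Klf4 had a single site upstream and 11 downstream. Distal sites had a median width of 214 bp (Nr5a2) to 318 bp (Klf4), where the median of all 150548 distal sites was 241 bp. The widest was at Klf2, 1357 bp at chr8:72333338-72334694, 15.0 kb downstream of the start, and the next were at Prdm14 (1151 bp, 111 kb downstream) and Klf5 (1068 bp, 41.5 kb downstream). The densest 10 kb held 7 sites at Klf2, 39.8 to 48.4 kb upstream, and 7 at Sall4, 71.8 to 80.7 kb upstream.

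Few other coding genes had their most 5′ start near the naive factors. Further starts of those genes were not counted. No other coding gene had its 5′ end in the window of Klf4, Klf5, Esrrb, Tfcp2l1, Prdm14 or Nr5a2, so 6 of 8, beside 7.78% of all coding genes, whose median was 4 such neighbours. The window of Sall4 held Atp9a, with its 5′ end 24.8 kb downstream, marked by a peak of 2509 bp. Weaker H3K4me3 peaks lay at other Atp9a starts, 33.1 kb (fold 4.06) and 96.5 kb (fold 4.18) downstream. That of Klf2 held Fam32a, Ap1m1 and Eps15l1, all marked, and Gm10282, unmarked. The genes with which the distal sites interact were not analysed here.

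**Figure D5:**
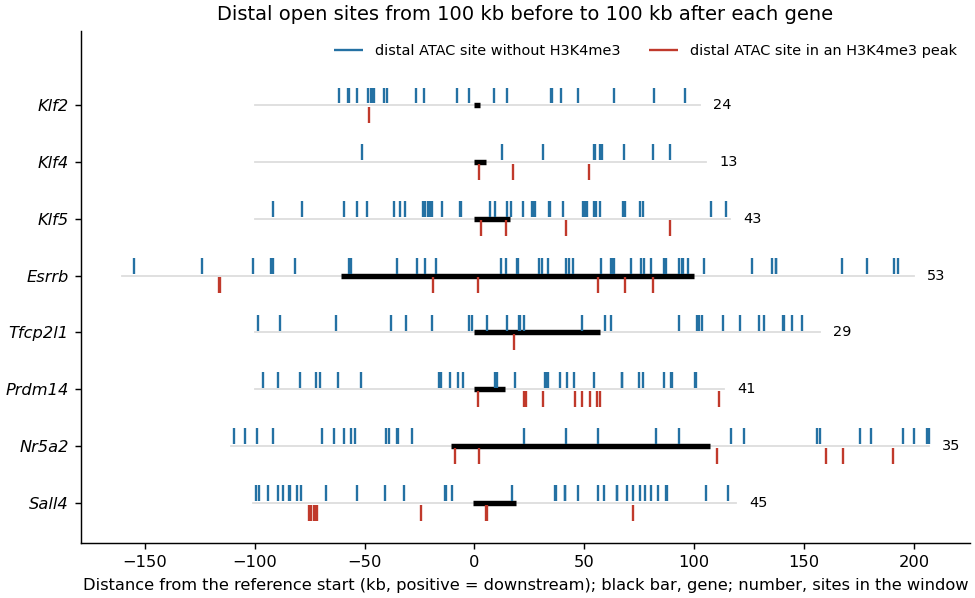
Positions of the distal ATAC-seq sites of each naive factor by distance from the reference start (x axis, kb), above the line where no H3K4me3 peak overlaps the site and below it, in red, where one does. Black bars are the genes, grey lines the windows and numbers the sites per window, from 13 at Klf4 to 53 at Esrrb. The red ticks gather 46 to 57 kb downstream of Prdm14 and 72 to 75 kb upstream of Sall4.

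Some distal sites lay in H3K4me3 peaks themselves. Of the 283, 41 shared a base with a peak (14.5%, 95% Wilson interval 10.9 to 19.1%, counting error only), beside 11.5% of all distal sites. Prdm14 had 10, Sall4 9, Esrrb 7, Nr5a2 6, Klf5 4, Klf4 3, and Klf2 and Tfcp2l1 1 each. Of the 41, 8 lay in H3K4me3 peaks at the gene's own starts, where the peak runs more than 1 kb from the start, and 33 in other peaks. Those 8 were 2 each at Esrrb and Sall4 and 1 each at Klf4, Klf5, Prdm14 and Nr5a2. Neighbouring sites can lie in the same peak, so they are not independent.

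In the same windows 61 H3K4me3 peaks were listed, and 40 of them had no annotated start of any gene, coding or not, within 1 kb. The share of such peaks in the whole list was not computed, so 40 of 61 has no background beside it. Esrrb, Prdm14 and Sall4 had 9 such peaks each, more than 94.97% of coding genes, and Nr5a2 had 6. Klf4, Klf5 and Tfcp2l1 had 2 and Klf2 1, where the median of coding genes was 2. Window length was not matched in these counts, and the windows of Esrrb (361 kb) and Nr5a2 (318 kb) were the longest of the 8. At Esrrb several of the peaks join the one at the third start into the 10212 bp domain when gaps of up to 1 kb are closed. At Prdm14 the peaks without a start formed a run from 46.3 to 56.3 kb downstream of the start. Those from 48.4 to 56.3 kb lay inside another annotated gene, Gm29283, and the nearer ones were intergenic. The farthest of the run (2226 bp, chr1:13069934-13072159) had a fold of 10.4, slightly above the 10.0 of the Prdm14 promoter. Peaks of 1243 and 1922 bp lay 31.2 and 23.2 kb downstream of the start. At Sall4 the run lay 71.8 to 78.7 kb upstream, with a peak of 1188 bp and a fold of 15.0 (chr2:168839543-168840730) and next to it a peak of 1865 bp with a fold of 7.53. This place is also the densest 10 kb of open sites at Sall4, where 5 of the 7 sites lay in H3K4me3. At Esrrb the peaks without a start were intronic, and 8 of the 9 lay 47.1 to 68.3 kb beyond the second start, on either side of the third, with folds of 2.63 to 7.47. Klf4 had 2 peaks downstream in place of a run, 17.5 kb (996 bp, fold 14.6) and 52.0 kb (1576 bp, fold 8.99) from its start.

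Short sequence motifs of the factors themselves, except SALL4, were then searched in 300 bases centred on each distal site, on both strands. The letters were TCAAGGTCA for ESRRB and NR5A2, GGGNGTGG for the KLF proteins, GGTCTCTAA for PRDM14, and 2 CCAG words with 6 bases between them for TFCP2L1. At least 1 of these was present in 81 of the 283 sites (28.6%, 23.7 to 34.1%), beside 21.9% of all distal sites. Most were KLF matches, in 68 sites (24.0%, 19.4 to 29.3%; 17.6% of all). The ESRRB and NR5A2 word was found in 5 sites (1.77%, 0.757 to 4.07%; 0.933% of all), TFCP2L1 in 14 (4.95%, 2.97 to 8.13%; 4.24%) and PRDM14 in 1 (0.353%, 0.0624 to 1.97%; 0.179%). The octamer ATGCAAAT of POU factors, searched for comparison, was in 8 sites (2.83%, 1.44 to 5.48%; 3.97%). Only the intervals for KLF and for at least 1 word lay above the share of all distal sites. All the intervals cover counting error only and treat neighbouring sites as independent, so they may be too narrow and were not used as a test. The KLF word is rich in G, and base composition was not matched. In RefSeq promoters of the same length the words were found in 0.423% (ESRRB and NR5A2), 17.6% (KLF), 0.256% (PRDM14), 3.44% (TFCP2L1) and 1.74% (octamer). A match describes letters and not a bound site.

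The ESRRB and NR5A2 word lay in single sites near Klf2, Klf5 and Esrrb and in 2 near Sall4, of which the site 84.5 kb upstream also held the only PRDM14 word. None of the 35 sites of Nr5a2 held it. Words of a factor near its own gene were found in 6 of 24 sites of Klf2, 3 of 13 of Klf4, 10 of 43 of Klf5, 1 of 53 of Esrrb and 3 of 29 of Tfcp2l1, and in 0 of 41 of Prdm14. For Klf4, Esrrb and Tfcp2l1 the widest of these sites is shown, as 300 bases of the plus strand of GRCm38.p6 with every match to the 5 words in capitals.
Klf4, 17.4 kb downstream, in an H3K4me3 peak, chr4:55514878-55515177: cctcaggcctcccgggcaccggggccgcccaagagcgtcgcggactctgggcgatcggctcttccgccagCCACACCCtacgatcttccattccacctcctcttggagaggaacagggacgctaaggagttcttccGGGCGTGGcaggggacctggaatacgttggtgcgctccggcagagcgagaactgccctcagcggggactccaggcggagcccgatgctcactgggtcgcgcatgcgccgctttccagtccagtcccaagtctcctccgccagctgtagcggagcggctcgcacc
Esrrb, intron, 56.1 kb before the second start, chr12:86365418-86365717: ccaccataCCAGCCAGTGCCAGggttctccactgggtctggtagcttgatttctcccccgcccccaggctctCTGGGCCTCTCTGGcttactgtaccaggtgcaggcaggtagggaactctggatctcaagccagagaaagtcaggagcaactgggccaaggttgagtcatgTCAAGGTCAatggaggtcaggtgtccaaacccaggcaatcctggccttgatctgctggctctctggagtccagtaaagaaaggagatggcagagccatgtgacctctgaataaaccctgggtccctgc
Tfcp2l1, 149 kb downstream, chr1:118776718-118777017: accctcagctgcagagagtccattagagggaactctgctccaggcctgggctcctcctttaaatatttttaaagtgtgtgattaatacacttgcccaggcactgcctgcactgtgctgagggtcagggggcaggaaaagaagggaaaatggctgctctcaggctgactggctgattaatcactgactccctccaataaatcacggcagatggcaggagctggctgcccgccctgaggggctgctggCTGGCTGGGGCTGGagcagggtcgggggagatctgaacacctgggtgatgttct

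The Klf4 site holds 2 KLF words, 28 CG pairs and a CpG ratio of 0.827, so that this distal stretch resembles a CpG-island-like promoter in composition, although no start is annotated within 1 kb of its H3K4me3 peak. The Esrrb site, 425 bp wide and without H3K4me3, holds the nuclear receptor word and 2 TFCP2L1 matches, with 1 CG pair. The Tfcp2l1 site, 542 bp wide and also without H3K4me3, holds 1 TFCP2L1 match and 3 CG pairs.

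Other gene lists put the widths in context, and lists that share genes are not independent. The core factors had promoter peaks of 5078 bp (Pou5f1), 8186 bp (Sox2) and 4301 bp (Nanog), all 3 in the widest 10%, and 37 to 55 distal sites. Nanog had the lowest fold of the 3, 14.9, and the most distal sites. Of 10 other genes of the naive state 10 were marked and 4 (Tbx3, Gbx2, Zfp42 and Fgf4) were in the widest 10%. Their median width was 2744.5 bp, from 1274 bp at Dppa5a to 7846 bp at Tbx3, and their median number of distal sites 28. Of 9 genes of the formative and primed states, which follow the naive state in the embryo, 9 were marked and 5 (Zic2, Otx2, Pou3f1, Sox3 and Lef1) were in the widest 10%. Their median width, 5326 bp, was above the 4282.5 bp of the naive factors, with a median of 25 distal sites. Wide H3K4me3 thus did not separate the naive from the later genes.

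The relatives of the 8 factors in the KLF, SALL, PRDM, ESRR, NR5A and grainyhead families also included many wide peaks. Of 38 relatives 37 had a promoter peak, all but Klf17, and 15 were in the widest 10%. The 37 peaks ranged from 1294 bp (Prdm13) to 8526 bp (Sall1), with a median width of 3655 bp. The median number of distal sites over the 38 relatives was 26. Klf9 (5706 bp), Klf12 (5610 bp), Klf3 (4862 bp), Klf13 (4842 bp) and Klf16 (4776 bp) had wider peaks than Klf2, Klf9 and Klf12 also wider than Klf4, and Sall1 a wider peak than Sall4. Nr5a1, the closest relative of Nr5a2, had 3195 bp at a fold of 11.4. Esrra had 2494 bp at a fold of 36.9 and Esrrg 3805 bp at a fold of 13.1, so that Esrrb stood between them in both measures by its widest peak. The peak at the Esrrb start with most transcripts (2203 bp, fold 27.1) was narrower than the widest peak of either relative. The relatives were not measured at their own start with most transcripts. Tfcp2, like Tfcp2l1, had a peak of ordinary width (1850 bp). By distal sites, 5 of the 8 naive factors were in the top 10%, beside 8 of the 38 relatives, 3 of 3 core factors, 2 of 10 other naive genes and 2 of 9 formative and primed genes. These are counts of chosen genes, given as a description.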

How the data were processed

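Peak lists of H3K4me3 ChIP-seq and ATAC-seq from F123 cells were used. PLAC-seq and input samples were not analysed here. The authors called H3K4me3 peaks with ENCODE's histone ChIP-seq pipeline, unmodified. The peak threshold is not given in the sources used here. The list's deposited columns give positions, a score, a fold enrichment (a ratio), −log10 p and q values, and a summit. For ATAC-seq the submitters' processing notes name Bowtie (version 1.1.2), bedtools (version 2.27.1), SAMtools and the peak caller MACS2 (version 2.1.1.20160309). Per the methods, reads were corrected for the Tn5 insertion and peaks were called at a permissive cutoff on the p value, not the q value. Peaks present in each replicate were kept. That deposited list has positions only. The labels name mm10 for both.

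Peaks were compared with GENCODE M21 starts of protein-coding genes on chromosomes 1 to 19 and X. Peaks within 1 kb of a start marked it. Neither list held overlapping peaks. Percentiles count coding genes with a lower value. The reference start of a gene is its marked start cluster with most transcripts. Sequences came from GRCm38.p6, the build of mm10, and RefSeq. Intervals of shares are 95% Wilson intervals. No test was made, since each list is a single set for both replicates and depth is unknown. The genes named were the 8 factors, coding neighbours in their windows, each factor's widest and nearest distal sites, and in each list the widest and narrowest genes and the factors' relatives. Any other peak, site or list gene in the text was picked with its value known. The members, lists and thresholds were chosen with earlier results of these data known. Alternatives are given in the closing section. The interval counts were checked against bedtools 2.31.1, which gave the same 14291 genes with a peak at the 5′ end, and the motif search was tested on simulated data. Software was samtools 1.23.1, pysam 0.24.0 and matplotlib 3.10.9 with scipy 1.17.1, pandas 2.3.3 and numpy 2.4.6 under Python 3.11.15.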

Additional observations from a re-analysis of the deposited data

How the results depend on the processing

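The counts were recomputed under other settings, and most stayed within 1.5 times their value. The median number of distal sites per naive factor fell from 38 to 17 with the widest 50% of the ATAC-seq sites, to 18.5 with 50 kb around the gene and to 23.5 with 100 kb around the 5′ end. The medians of all coding genes were then 8, 10 and 16. The number of naive factors in the top 10% by distal sites was 3 instead of 5 with 50 kb around the gene (Esrrb, Klf5 and Prdm14) and 3 with 100 kb around the 5′ end (Klf5, Prdm14 and Sall4). With 100 kb around the marked start of most transcripts, chosen after seeing the data, it was 4 (Esrrb, Klf5, Prdm14 and Sall4) and the median 31. The remaining settings kept 4 or 5. All 8 factors kept a promoter peak under each definition by any start, but with the gene's most 5′ end alone Esrrb and Nr5a2 had none, and 5 of 8 stayed in the widest 10%. Joining peaks gave 6, with Esrrb and Nr5a2 in and Klf5 out. Marked start clusters were 13 to 15 of 18, or 17 of 21 with starts joined within 100 bp and 10 of 12 with basic transcripts. CpG-island-like starts were found at 6 members with 200 bp windows and lower limits, where Sall4 was added, and at 5 with 1000 bp windows, where Sall4 took the place of Tfcp2l1. Own motifs were found in 81 or, over the site's full interval, 86 of 283 sites. For marked starts, CpG-island-like starts and own motifs, the alternatives were run on the naive factors only. The shares over all coding genes or all distal sites given above hold for the main settings. No paired analysis was possible because each list stands for both replicates, and for the same reason no replicate could be left out. The unknown depth limits what an unlisted peak can show.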
